A study of Mus musculus with 12 samples.

Results

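The EGF, PDGF, Kit and Met receptors are 8 receptor tyrosine kinases, chosen by gene name: Egfr, Erbb2, Erbb3, Erbb4, Pdgfra, Pdgfrb, Kit and Met. They were read by 21 of the 41174 gene probes on each array, and they are 8 of the 25416 genes for which a probe rose above background. Because the 8 names were picked when results of these same arrays were already known, their levels are described here without a test. Each of 12 mouse samples was hybridised to 1 one-colour array. Induced pluripotent stem (iPS) lines made up 9 of the samples. Of these, 2 lines came from embryonic fibroblasts that received Bmi1, a Polycomb protein, together with Oct4. Another 5 came from embryonic fibroblasts turned into neural stem cell-like cells by a hedgehog-pathway activator and then given Oct4: 1 line with the ligand Shh, 2 with oxysterols and 2 with purmorphamine, a small-molecule agonist. The remaining 2 were oxysterol and Oct4 lines from adult tail-tip fibroblasts. The 10th sample was spheres of embryonic fibroblasts transduced with Bmi1, the 11th ES cells of 129/Ola mice, and the 12th mouse embryonic fibroblasts (MEF). Each iPS line has received Oct4, and the labels do not say that lines of 1 group came from separate cultures or animals.

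Signals are given as log2 of the processed signal minus log2 of the array's 75th percentile, so 0 is the level of the gene spot at that percentile. That percentile ran from 1339.7 to 2156 intensity units, and 58.4% to 80% of gene spots were well above background. A level is read within a probe only, since probes of different sequence differ in brightness. No receptor probe was saturated. ES, MEF, the spheres and the Shh line had 1 array each, so precision is limited by how few arrays there are.

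The labels were set against marker genes first. Summed scaled signal of 7 pluripotency genes was 113 to 166 in the 9 lines, 0.392 in the spheres, 133 in ES and 0.811 in MEF. Summed signal of 8 fibroblast genes was 3.16 to 44.3 in the lines, 79.9 in the spheres, 4.34 in ES and 140 in MEF. The highest lines by this sum were tail-tip line 2 (44.3) and purmorphamine line 2 (30.0), and the next was oxysterol line 1 (11.4). The sum adds unlogged signals, so bright genes weigh most. Col1a2, Prrx1, Dcn and Twist2 reached 4.84, 2.91, 1.97 and 0.89 in the lines, against 5.16, 4.26, 4.59 and 4.90 in MEF. Col1a1 reached 0.86, against 0.68. Thy1 reached only 1.28, against 4.77, and Postn and Fap were not well above background in any line. The spheres, labelled neural stem cell-like, matched that label only in part. Of 7 neural stem cell markers, 4 were higher in the spheres than in MEF and 3 lower. Pax6 was -2.92 in the spheres, against -8.02 and not well above background in MEF, and the progenitor filament gene Nes was 0.41, against 0.30 in MEF. Sox2 went the other way, at -9.14 and not well above background in the spheres, against -1.16 in MEF. Of the 8 fibroblast markers, 7 were lower in the spheres than in MEF: Thy1 read -3.33, against 4.77 in MEF, and Postn and Fap were not well above background in the spheres. The mesenchymal factor Prrx1 was at 4.76 in the spheres, against 4.26 in MEF. They are called Bmi1 spheres below.

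Receptor tyrosine kinases span the membrane once, pair up when a ligand binds outside, and phosphorylate each other's tails inside, which recruits adaptors that feed the Ras-MAP kinase and PI3 kinase pathways. Egfr binds EGF-like ligands, Erbb3 and Erbb4 bind neuregulins, Erbb3 has little kinase activity of its own, and Erbb2 has no known ligand and acts as a partner. PDGF receptors mark mesenchymal cells, among them fibroblasts and pericytes. Kit, the receptor for stem cell factor, serves germ cells, blood progenitors, melanocytes and mast cells, and Met is the receptor for hepatocyte growth factor, made by mesenchyme and read by epithelia.

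By the brightest probe of each gene, the receptors fell into 3 patterns. Egfr, Pdgfra and Pdgfrb were lower in all 9 iPS lines than in MEF, and Erbb3 and Kit were higher in all 9. Erbb2, Erbb4 and Met overlapped the MEF value, Met at the probe listed under that name. So 5 of 8 receptors lay at least 2-fold from MEF with no overlap, by the brightest probe of each gene; 41.1% of all genes did so (26.7% higher and 14.4% lower). Because these contrasts were in view when the 8 genes were named, nothing is read from that count. The median difference between lines and MEF was -0.77 over the 8 receptors and 0.44 over all 25416 genes. The 8 ran from -4.59 for Pdgfrb to 5.60 for Erbb3, and nothing is read from this median either.

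**Figure D1:**
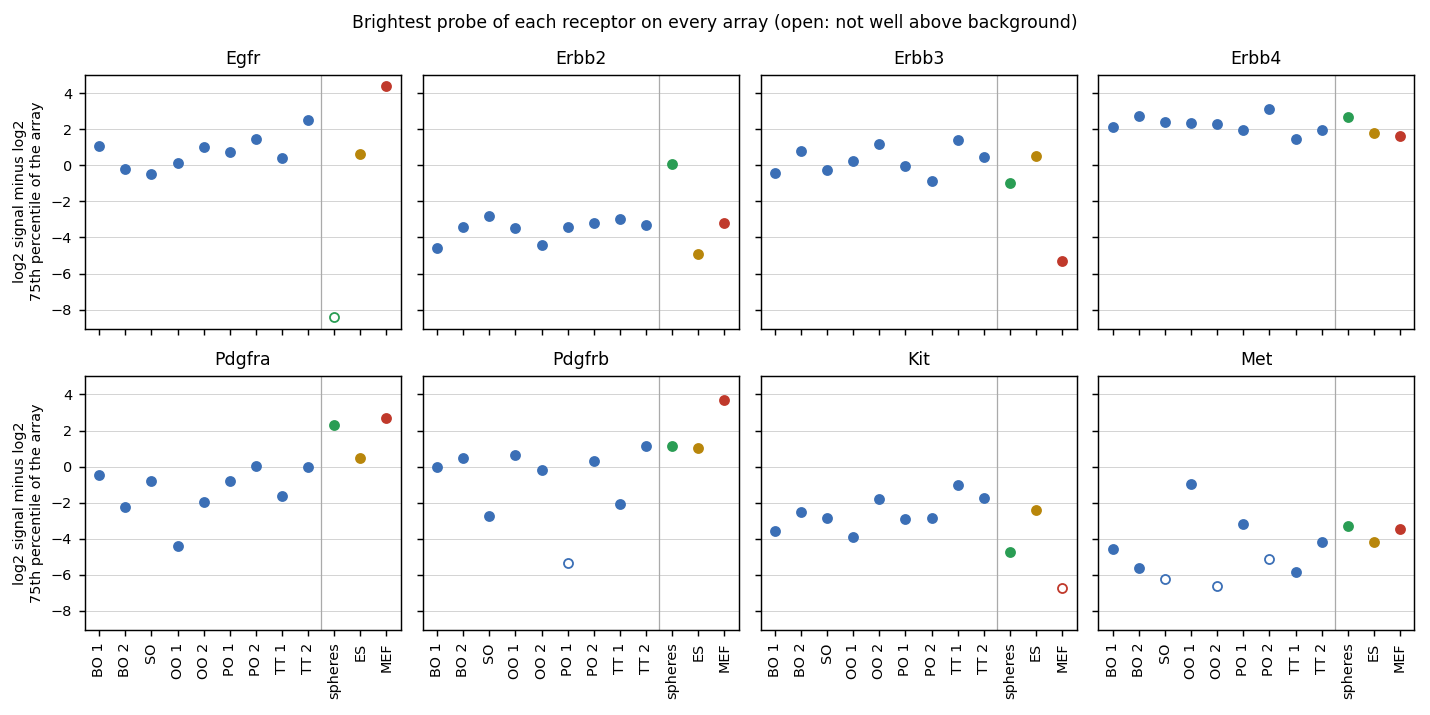
Each panel shows the brightest probe of 1 receptor on the 12 arrays, as log2 signal relative to the array's 75th percentile. Blue points are the 9 iPS lines (BO Bmi1-Oct4, SO Shh-Oct4, OO oxysterol-Oct4, PO purmorphamine-Oct4, TT tail-tip oxysterol-Oct4), green the Bmi1 spheres, ochre ES and red MEF, and open points were not well above background. Egfr in MEF (4.40) stands above all blue points, and Kit and Erbb3 in MEF (-6.76 and -5.33) below all of them.

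Egfr was read by 6 probes, 1 of which was not well above background on any array. Its brightest probe lies far 3′ on the transcript that the array design lists as variant 1 (chr11:16865821-16865880, plus strand, mm7, the build of the array design) and was spotted 10 times. It read -0.48, 0.74 and 2.50 in the iPS lines (lowest, median, highest), -8.42 in Bmi1 spheres, 0.62 in ES and 4.40 in MEF. The MEF value lies above every other array, the 9 lines surround ES, and the spheres fall below all, not well above background. The 9 lines averaged 0.74 ± 0.91 (SD, n = 9), 3.66 log2 units below MEF (difference -3.66). Spheres lay at least 2590-fold below MEF at this probe, and ES lay at -3.79 relative to MEF.

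The Egfr probes did not rank the spheres alike. A probe from the extracellular part (chr11:16835551-16835610), read -3.11, -1.25 and 0.97 in the lines (lowest, median, highest), 0.30 in spheres, -1.63 in ES and 2.32 in MEF. Here the spheres were well above background and only 2.02 log2 units lower than MEF (difference -2.02), while MEF was again the highest array. A probe for the shorter variant 2 (chr11:16839391-16839450, 10 spots) read -7.22, -2.78 and 0.00 in the lines, -6.48 in spheres, -7.41 in ES and 1.22 in MEF. It was well above background in 6 of 9 lines, in spheres and in MEF, and purmorphamine line 2 (0.00) and tail-tip line 2 (-0.10) were the highest lines. A further 3′ probe (chr11:16869636-16869695) read -7.14, -4.82 and -1.47 in the lines, -7.23 in spheres, -5.95 in ES and 0.02 in MEF. These 4 probes put MEF above every other array, but across the 12 arrays the extracellular probe and the far 3′ probe correlated at only 0.18. Another probe on variant 1 (chr11:16864187-16864246), well above background on 11 arrays, did not have MEF on top: it read -4.95, -4.22 and -2.95 in the lines, -3.71 in spheres, -3.37 in ES and -3.50 in MEF. There tail-tip line 2 and ES exceeded MEF, and the lines differed from MEF by -0.72. The extracellular probe is printed because it shows the sphere signal that the 3′ probe lacks.
Egfr: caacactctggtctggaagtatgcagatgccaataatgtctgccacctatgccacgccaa

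**Figure D2:**
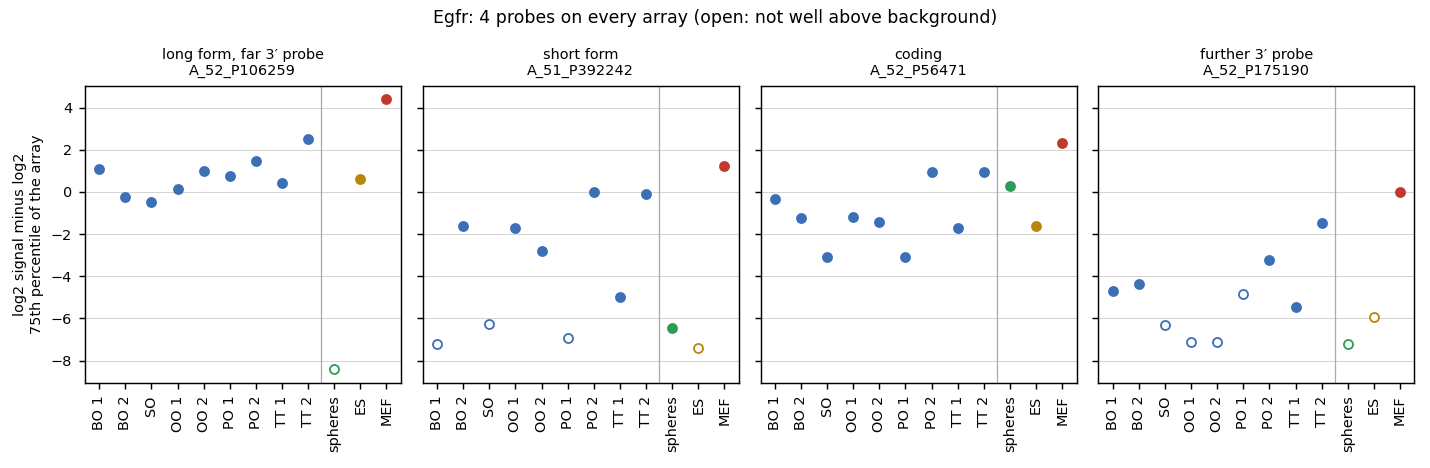
The 4 panels show 4 Egfr probes on the 12 arrays, as log2 signal relative to the array's 75th percentile, with the abbreviations and colours of the plot of receptors by array. MEF is the highest array in each of these 4 panels. The sphere point sits at -8.42 in the first panel and at 0.30 in the coding panel.

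Erbb3, a receptor with a weak kinase that relays neuregulin signals through its partners, ran the other way. Its brightest probe (chr10:128069461-128069520, minus strand, mm7) read -0.88, 0.24 and 1.41 in the iPS lines (lowest, median, highest), -0.99 in Bmi1 spheres, 0.50 in ES and -5.33 in MEF. MEF lies below every other array, and the spheres lie just under the lowest line. The lines averaged 0.27 ± 0.76 (SD, n = 9), 5.60 above MEF, and spheres were 4.34 above MEF. That probe is listed for a predicted transcript. The 4 other Erbb3 probes were dim, at -2.05 or lower on every array. The mean of all kept Erbb3 probes gave 2.04 rather than 5.60. Correlations of the 4 other probes with the brightest probe ran from -0.28 to 0.64 over the 12 arrays. Of these 4, the probe at chr10:128086809-128086868 ran the other way. It read -4.70 in MEF and was well above background in 2 of 9 lines. Relative to MEF the lines lay there at -1.75, and the spheres, not well above background, at -3.09.

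Erbb2, the ligand-less partner of the family, was highest in the Bmi1 spheres at its brightest probe only. Its brightest probe (chr11:98545828-98545887, plus strand, 10 spots) read -4.60, -3.41 and -2.79 in the lines (lowest, median, highest), 0.09 in spheres, -4.92 in ES and -3.19 in MEF. The spheres lie above all other arrays, ES lies below all, and the 9 lines surround MEF. Spheres were 3.28 above MEF. A second Erbb2 probe in the kinase segment read -5.95, -4.94 and -3.11 in the lines, -4.57 in spheres, -3.49 in ES and -5.46 in MEF. At that probe the spheres lay below ES and below the highest line. ES was there above MEF by 1.97, where the brightest probe put ES below MEF (difference -1.73). The 2 Erbb2 probes correlated at 0.06 over the 12 arrays.

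Erbb4, the other neuregulin receptor, showed little spread at its brightest probe. The array design places this probe of 60 bases across 1229 bases of mm7 (chr1:68285099-68286327, minus strand). The lines read 1.48, 2.27 and 3.14 (lowest, median, highest), the spheres 2.70, ES 1.82 and MEF 1.63. All 12 arrays lie within that narrow band, and 8 of 9 lines exceed MEF. The other 2 Erbb4 probes told otherwise: one lay between -7.83 and -4.51 over the 12 arrays, and the other was not well above background on any array. Signal at the first probe therefore was not matched by the gene's other probes, and whether it comes from Erbb4 was not tested.

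Erbb2, Erbb3 and Erbb4 each had a probe in the same stretch of the kinase domain, and these are printed to show how far the probes of the family differ. Capitals mark the 33 bases that are identical in all 3 after ungapped alignment. Erbb2 and Erbb4 share 42 of 60 aligned bases, Erbb2 and Erbb3 share 35 of 56, and Erbb3 and Erbb4 share 44 of 56. All 3 were dim: over the 12 arrays the Erbb2 probe peaked at -3.11, the Erbb3 probe at -3.15 and the Erbb4 probe at -4.51. The bright Erbb4 probe follows in lower case, for contrast with the dim one of the same gene.
Erbb2 kinase probe: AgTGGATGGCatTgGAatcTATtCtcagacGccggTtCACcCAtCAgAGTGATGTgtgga
Erbb3 kinase probe: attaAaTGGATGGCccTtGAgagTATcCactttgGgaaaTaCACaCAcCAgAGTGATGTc
Erbb4 kinase probe: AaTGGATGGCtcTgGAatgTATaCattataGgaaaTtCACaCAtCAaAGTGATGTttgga
Erbb4 brightest probe: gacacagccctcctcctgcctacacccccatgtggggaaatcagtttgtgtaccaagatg

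**Figure D3:**
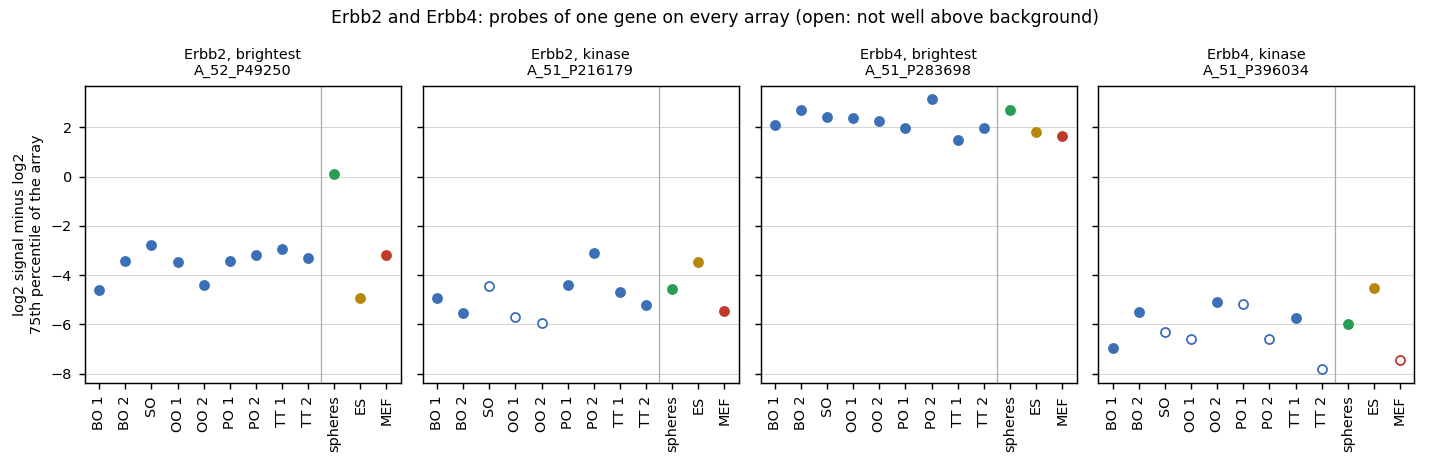
The 4 panels show 2 probes of Erbb2 and 2 of Erbb4 on the 12 arrays, as log2 signal relative to the array's 75th percentile, with the abbreviations and colours of the plot of receptors by array. The sphere point of the brightest Erbb2 probe (0.09) stands clear of the other arrays, while the kinase probe has it at -4.57. The Erbb4 panels lie at 1.48 to 3.14 and at -7.83 to -4.51.

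The PDGF receptors, which drive growth of mesenchymal cells, were lower in the lines than in MEF. Pdgfra, the receptor for PDGF-A and PDGF-C among others, was read at its brightest probe (chr5:74616116-74616175, plus strand, 10 spots). It gave -4.39, -0.81 and 0.01 in the iPS lines (lowest, median, highest), 2.29 in Bmi1 spheres, 0.45 in ES and 2.71 in MEF. All 9 lines lie below ES, the spheres come close to MEF, and oxysterol line 1 is the lowest array. The lines averaged -1.37 ± 1.39 (SD, n = 9), with a difference of -4.08 from MEF and -1.82 from ES. A second Pdgfra probe, from the extracellular part and printed here because it stayed dim while the first was bright, lay between -7.84 and -3.88.
Pdgfra: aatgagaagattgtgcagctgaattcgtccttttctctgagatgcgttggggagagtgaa

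Pdgfrb, the pericyte and fibroblast receptor for PDGF-B, was read by 1 probe. It gave -5.34, -0.03 and 1.12 in the lines (lowest, median, highest), 1.16 in Bmi1 spheres, 1.03 in ES and 3.71 in MEF. MEF exceeds every other array, and spheres, ES and tail-tip line 2 lie together. The lines averaged -0.88 ± 2.11 (SD, n = 9), a difference of -4.59 from MEF. Purmorphamine line 1 (-5.34) was not well above background, and the Shh line (-2.76) and tail-tip line 1 (-2.08) were the next lowest. A set of 6 pericyte and smooth muscle genes summed to 4.03 to 11.8 in the lines, 5.57 in the spheres, 5.40 in ES and 19.7 in MEF. The part of other cells in these levels was not tested, and in bulk RNA fewer cells of a type and less RNA per cell cannot be told apart.

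Kit signal was higher in the 9 lines and ES than in the spheres and MEF. Its probe (chr5:75074515-75074574, plus strand, 10 spots) read -3.91, -2.83 and -1.01 in the iPS lines (lowest, median, highest), -4.75 in Bmi1 spheres, -2.40 in ES and -6.76 in MEF. The MEF spot was not well above background, every other array was, and the lines surround ES. Against the MEF signal, which lay just over that array's floor of -6.85 (its lowest signal well above background), the lines were at least 18.2-fold higher, ES at least 20.6-fold and the spheres at least 4.03-fold. These bounds depend on the background correction: with normexp background the difference from MEF was 2.35 log2 units rather than 4.19 in the lines, and 0.77 rather than 2.01 in the spheres. Of 9 melanocyte and mast cell markers 7 were measured, and their summed signal was 1.27 to 3.37 in the lines, 3.90 in spheres, 1.05 in ES and 1.16 in MEF. Their part in the Kit level was not tested.

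Kit and Pdgfra are neighbours on mouse chromosome 5 with 377 kb between them in GRCm38.p6, and the lines differed from MEF in opposite directions for them. Their promoters are printed for that reason: the first 250 bases of each gene's window in the RefSeq promoter table, plus strand, chr5:75152001-75152250 for Pdgfra and chr5:75574737-75574986 for Kit. The Kit window ends at the gene's start (75574987), while the Pdgfra window lies inside the gene, whose start in RefSeq is 75151322, so it precedes a start further in. Capitals mark GGGCGG, searched on both strands, which 32.7% of 32851 RefSeq promoters of this length hold. Kit had 1 match and Pdgfra 0. Neither window held TATAAA (12.4% of promoters), CACGTG (6.0%) or ATTTGCAT (1.6%) on either strand. The Kit window had 17 CpG dinucleotides and the Pdgfra window 4, against a median of 6 over all promoters. Of the 8 receptors, 6 had a promoter in the RefSeq table. Egfr, lower in the lines than in MEF like Pdgfra, had 1 GGGCGG match and 11 CpG. Erbb2 had 0 and 16, Erbb4 0 and 12, and Met 3 and 24. Any link between these counts and expression was not tested.
Pdgfra promoter: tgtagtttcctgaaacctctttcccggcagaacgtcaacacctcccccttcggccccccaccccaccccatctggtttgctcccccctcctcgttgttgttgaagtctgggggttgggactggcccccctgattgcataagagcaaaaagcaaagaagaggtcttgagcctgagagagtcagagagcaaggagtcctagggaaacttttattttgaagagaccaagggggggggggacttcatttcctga
Kit promoter: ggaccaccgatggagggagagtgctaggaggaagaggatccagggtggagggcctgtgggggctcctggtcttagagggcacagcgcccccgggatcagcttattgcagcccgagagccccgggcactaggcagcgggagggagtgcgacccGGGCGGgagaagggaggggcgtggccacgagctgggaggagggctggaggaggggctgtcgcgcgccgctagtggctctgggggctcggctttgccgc

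At the Met probe, oxysterol line 1 was highest, though the outlier test of the closing section did not flag it. The Met probe (chr6:17493755-17493814, plus strand) read -6.62, -5.14 and -0.94 in the iPS lines (lowest, median, highest), -3.31 in Bmi1 spheres, -4.19 in ES and -3.49 in MEF. Oxysterol line 1 (-0.94) was the highest of all arrays, its sister line 2 (-6.62) was the lowest and not well above background, and spheres, ES and MEF lay between. The lines averaged -4.71 ± 1.77 (SD, n = 9), overlapping MEF (difference -1.21). A pair of probes listed under AI838057, an older name that RefSeq gives as a synonym of Met, did not share that peak: oxysterol line 1 read -6.29 and -4.96 there, neither well above background. Both of those probes put all 9 lines below MEF without overlap (differences -2.84 and -2.81), unlike the Met probe. The Met probe itself is printed because this 1 probe carries the value.
Met: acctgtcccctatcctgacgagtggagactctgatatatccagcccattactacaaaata

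Orders of level are given between classes at the brightest probe of each gene, using the spread of the 9 lines as the yardstick. Other probes gave other orders. At the extracellular Egfr probe the spheres (0.30) lay above the mean of the lines (-1.13) and ES (-1.63). At the Erbb2 kinase probe ES (-3.49) stood first, above the spheres (-4.57). For Egfr, MEF stood first, the lines and ES were 0.13 apart with a line SD of 0.91, and the spheres were last. For Erbb3 and Kit, ES and the lines were first and lay 0.23 and 0.17 apart, under their line SDs of 0.76 and 0.92, and MEF was last. For Erbb2, spheres stood first, MEF and the lines lay 0.32 apart, under the SD of 0.61, and ES was last. For Pdgfra, MEF and spheres led and lay 0.42 apart, under the SD of 1.39. For Pdgfrb, spheres and ES were 0.13 apart, under the SD of 2.11. For Erbb4, every gap between neighbouring classes was at most 0.45, with an SD of 0.48. For Met, at the probe listed under that name, every gap was at most 0.69, with an SD of 1.77.

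Between the lines and ES most receptors overlapped. By the brightest probes, only Erbb2 (difference 1.41, higher in 9 of 9 lines) and Pdgfra (-1.82, lower in 9 of 9) were at least 2-fold from ES with no overlap, 2 of 8 receptors against 11.4% of all genes (6.21% higher and 5.16% lower). For Erbb2 the kinase probe ran the other way, at -1.39 relative to ES. In Bmi1 spheres, Erbb2, Erbb3, Erbb4 and Kit were at least 2-fold above MEF and Egfr and Pdgfrb at least 2-fold below it, where 33% of all genes were higher and 17.6% lower. The Kit call was lost with normexp background (0.77). In ES, Erbb3 and Kit were at least 2-fold above MEF and Egfr, Erbb2, Pdgfra and Pdgfrb below it, where 26.6% were higher and 20.7% lower. These contrasts compare 1 array with 1 array and carry no test.

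Within the iPS lines, the 2 with the highest fibroblast sums also had the most Egfr and Pdgfra at the brightest probes. That sum is weighted to bright genes, and the fibroblast genes Postn and Fap were not well above background in any line. Tail-tip line 2 and purmorphamine line 2, with fibroblast sums of 44.3 and 30.0, read 2.50 and 1.48 for Egfr at the far 3′ probe and -0.04 and 0.01 for Pdgfra. The other 7 lines, with sums of 3.16 to 11.4, read -0.48 to 1.08 for Egfr and -4.39 to -0.45 for Pdgfra. Among these 7 the levels did not follow the sum: oxysterol line 1, with the highest (11.4), had the lowest Pdgfra (-4.39) and read 0.14 for Egfr. Pdgfrb did not follow that order: tail-tip line 2 was highest (1.12), but purmorphamine line 2 (0.29) lay below oxysterol line 1 (0.63) and Bmi1-Oct4 line 2 (0.50). At the second Pdgfra probe tail-tip line 2 was the lowest line (-7.84). The part of fibroblast RNA in these levels was not tested. Without those 2 arrays the lines differed from MEF by -4.02 for Egfr, -4.47 for Pdgfra and -5.04 for Pdgfrb. MEF shares its slide with the 2 Bmi1-Oct4 lines and ES. On that slide alone the difference from MEF was -3.97 for Egfr, -4.06 for Pdgfra, -3.48 for Pdgfrb, 5.52 for Erbb3 and 3.72 for Kit.

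The lines were also compared by how they were made. No receptor was at least 2-fold apart without overlap between Bmi1-Oct4 lines (n = 2) and hedgehog-agonist lines (n = 5), where 10.2% of all genes were (1.88% higher and 8.29% lower). Slide and group cannot be told apart in that contrast, since the 2 groups share no slide. The same holds for tail-tip against embryonic oxysterol lines, each pair on a slide that the other pair is not on. Tail-tip and embryonic oxysterol lines, 2 of each, were at least 2-fold apart without overlap for Pdgfra and Kit, both higher in tail-tip lines, where 16.7% of all genes were apart (8.76% higher and 7.98% lower). Pdgfra read -1.63 and -0.04 in tail-tip lines, against -4.39 and -1.97 in embryonic lines. The second, dim Pdgfra probe ran the other way (-1.45), where neither embryonic line was well above background. Kit was -1.01 and -1.74 in tail-tip lines, against -3.91 and -1.81 in embryonic lines. Both differences rest largely on embryonic oxysterol line 1: without it Kit was 0.43 log2 units rather than 1.48 higher in tail-tip lines, and Pdgfra 1.14 rather than 2.35.

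Some receptors followed one another across arrays. Erbb3 and Kit correlated at 0.90 over the 12 arrays and at 0.71 over the 9 lines, the highest pair over the 12 arrays, and Egfr and Erbb2 at -0.75 over the 12 and -0.25 over the 9. Among 16173 genes, those most like Egfr over the 12 arrays included Perp (Pearson r 0.976) and Syn3 (0.961), which read -5.30 and -8.61 in the spheres. Most like Erbb3 were Mad2l1 (0.967), Gpr19 (0.964) and Dock6 (0.963), and most like Kit were Nmt2 (0.958), Tmem132c (0.935) and Myo5c (0.929). Most like Pdgfra were Pcdhb22 (0.953), Akirin1 (0.951) and Dnase1l1 (0.939), and most like Pdgfrb were Sfxn3 (0.921), Rcn3 (0.919) and Mapre3 (0.917). For Erbb2 they were Olfr1436 (0.94), Oit3 (0.939) and Snhg17 (0.918), for Met Tgfbr3 (0.879), Hps1 (0.869) and Vinac1 (0.827), and for Erbb4 Lcn8 (0.852), Rnf151 (0.852) and Vmn1r22 (0.851). These values rank over a handful of arrays that share the 4 cell classes and the slides. Some of the genes were under the array floor (the lowest signal well above background). Lcn8 and Vmn1r22 read -7.27 and -6.95 in MEF (floor -6.85) and -7.32 and -7.24 in ES (floor -5.36). Tmem132c read -9.04 in MEF and -9.10 in the spheres (floor -6.94). The part of the floors in these correlations was not tested.

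The ligands are not among the 8 receptors and were tested within the fit over all genes, but they too were listed with earlier results of these arrays known. Of 16 measured ligands, none passed the limma test (adjusted p under 0.05) between the iPS lines and MEF, where 10.9% of all genes did. Ereg, the EGF-family ligand epiregulin, had the largest shift: -4.33 ± 2.26 in the lines (SD, n = 9), against 1.55 in MEF (difference -5.88, limma adjusted p = 0.105). Its highest lines were tail-tip line 2 (-0.04) and purmorphamine line 2 (-1.54). Kitl, the ligand of Kit, read 1.07 in Bmi1 spheres, -2.21 in ES and -3.46 in MEF, and was well above background in 4 of 9 lines. Averaged over its probes, Kitl in ES lay below MEF instead (-2.33). Areg, amphiregulin, was not well above background in 5 of 9 lines and reached 0.60 in oxysterol line 2, against -2.90 in MEF. Hbegf, heparin-binding EGF-like factor, varied little, at 2.09 to 3.74 in the lines, 2.59 in spheres, 2.26 in ES and 3.59 in MEF. Pdgfa was 0.63 ± 0.32 in the lines, against -0.39 in MEF, and Pdgfc was 2.28 ± 0.67, against 3.81.

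**Figure D4:**
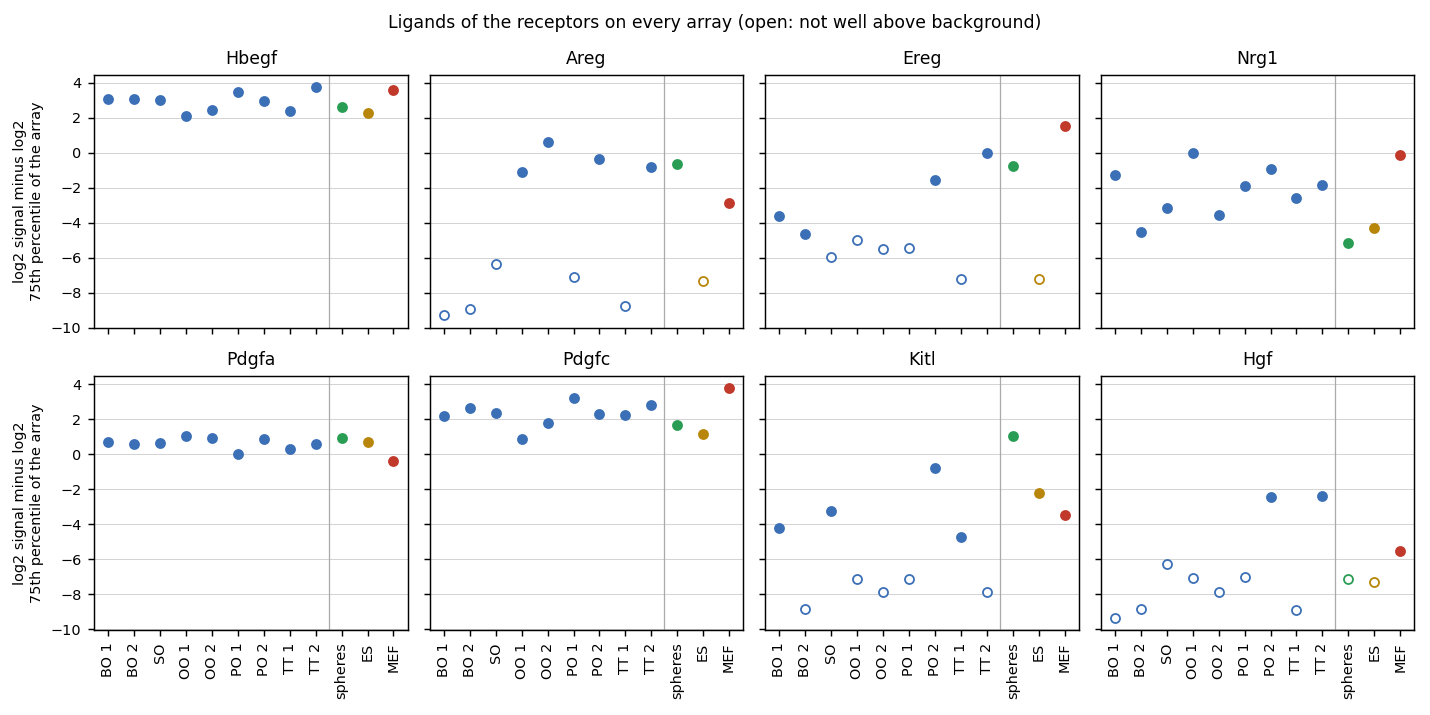
Each panel shows 1 ligand on the 12 arrays, as log2 signal relative to the array's 75th percentile, with the abbreviations and colours of the plot of receptors by array. Ereg is highest in MEF (1.55), Kitl is highest in the spheres (1.07), and Hbegf stays between 2.09 and 3.74.

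Downstream and around the receptors, 6 of the 69 measured pathway genes passed the limma test between lines and MEF, 5 higher and 1 lower, where 8.18% of all genes were higher and 2.74% lower. Grb7, an adaptor that binds Erbb receptors, was 1.15 ± 0.56 in the lines, against -5.49 in MEF (difference 6.64, SE 0.606, limma adjusted p = 9.06e-05). Its gene starts 9.1 kb beyond the end of Erbb2 in GRCm38.p6, yet Erbb2 itself overlapped MEF. Gab1, a docking protein used by Met and Egfr, was 2.68 ± 0.40, against -2.03 in MEF (4.71, SE 0.488, limma adjusted p = 0.000214). Ptpn11, the phosphatase Shp2, was lower, at 2.26 ± 0.21, against 3.77 in MEF (difference -1.51, SE 0.367, limma adjusted p = 0.0259).

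The other 3 that passed are an epithelial membrane protease and 2 protease inhibitors, which among other substrates act on the activation of hepatocyte growth factor, a ligand that must be cut before it can act on Met. St14, the membrane protease matriptase, rose by 3.90 (SE 0.783, limma adjusted p = 0.0108). Its inhibitors Spint1 and Spint2 rose by 4.35 (SE 0.587, limma adjusted p = 0.00118) and 3.44 (SE 0.549, limma adjusted p = 0.00317). All 3 were higher in 9 of 9 lines. Bmi1 spheres read -5.54, -2.89 and -7.64 for them, against -1.67, -3.80 and -3.71 in MEF, and Spint2 was not well above background in the spheres. For St14, 1 of 2 probes ran the other way between spheres and MEF, and under other processing that difference ran from -4.29 to -0.95. Among the epithelial and keratinocyte markers, Epcam read 0.49 to 2.15 in the lines, against -4.40 in MEF. Krt8, Krt18 and Krt14 also lay above MEF in every line. Krt5 (-0.22 to 3.86, against 1.66) and Trp63 (-8.96 to -2.18, against -8.90 and not well above background) overlapped MEF. Cdh1, listed here with the pluripotency genes, read 1.86 to 3.33, against -8.91 and not well above background in MEF. The sum of 6 epithelial and keratinocyte markers was 4.56 to 22.1 in the lines, 4.09 in spheres, 8.04 in ES and 4.06 in MEF, and the part of epithelial character in these levels was not tested. In that list of 12, 3 rose and 0 fell. The adaptors and effectors gave 2 higher and 1 lower of 18, and the related receptors gave 0 of 9 and the negative regulators 0 of 14. Hpn, another activating protease, differed by 5.29 without passing (limma adjusted p = 0.0595). Only 1 MEF array stands behind these tests, which borrow their spread from the 9 lines, and with slide as a fixed block Ptpn11 and St14 no longer passed (limma adjusted p = 0.0623 and 0.0704), with differences of -1.65 and 3.40. On the slide of MEF alone, with 2 lines, none of the 6 passed, with Grb7 at 6.46 (limma adjusted p = 0.13).

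**Figure D5:**
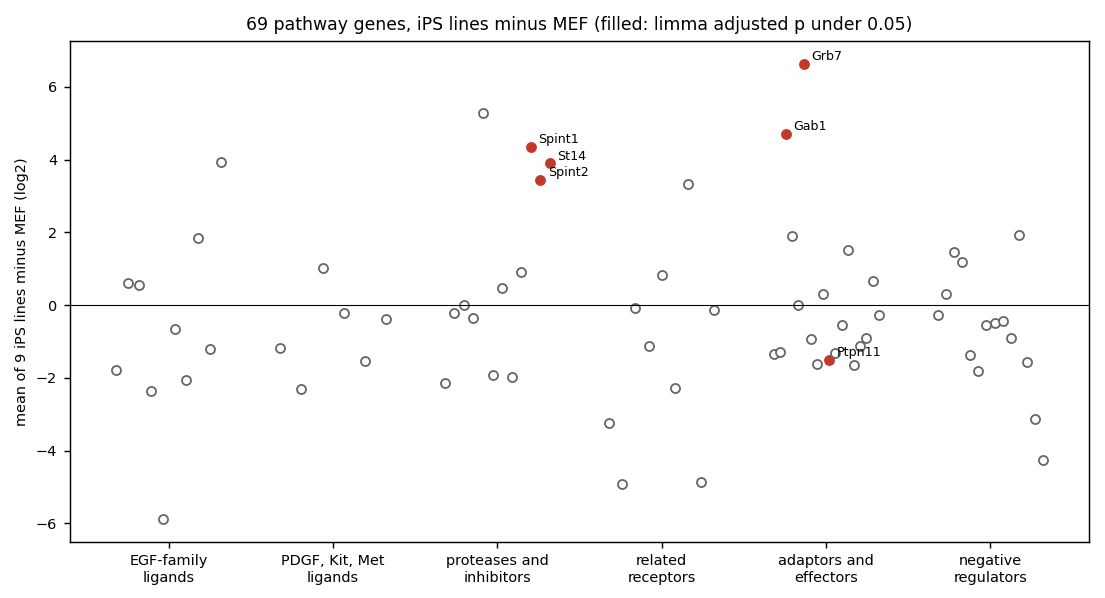
Each point is 1 of 69 pathway genes, grouped by list along the x axis, and the y axis is the mean of the 9 iPS lines minus MEF in log2 units. Filled points passed the limma test at an adjusted p under 0.05 and are named. Grb7 (6.64) is the highest point, and Ptpn11 (-1.51) is the filled point below 0.

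Against ES, 0 of 69 pathway genes passed for the lines, where 0.0276% of all genes passed (0.00788% higher and 0.0197% lower). Also 0 of 69 had an unadjusted limma p under 0.05 there, where 4.46% of all genes did. Between Bmi1-Oct4 and hedgehog-agonist lines 0 of 69 passed, and 0% of all genes passed. At an unadjusted limma p under 0.05, 2 of 69 did (Areg and Btc), where 9.25% of all genes did, and Btc was not well above background in any line of either group. Of the 69, 14 were at least 2-fold higher and 21 lower in Bmi1 spheres than in MEF, and 16 higher and 29 lower in ES than in MEF, with no test. Over all genes 33% were higher and 17.6% lower in the spheres, and 26.6% higher and 20.7% lower in ES. Spheres had Mst1r, a Met relative, at least 4.47-fold above MEF, Kitl 4.53 log2 units above it, and Nrg1, a neuregulin, at -5.14, against -0.14 in MEF. ES had Grb7 6.60 and Gab1 4.48 above MEF, the co-receptor Nrp1 at least 38-fold below it and Ereg at least 120-fold below it. The hyaluronan receptor Cd44, a co-receptor of Met, was at -5.55 in ES relative to MEF, where its spot was saturated, so the true difference may be larger.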

How the data were processed

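RNA of 12 samples was measured on one-colour Agilent arrays. The deposited intensity values are processed signals made by Agilent Feature Extraction 9.5.3.1 after background subtraction, per the file headers, and the deposited flags for background, saturation and outliers (other columns) also come from it, per the file headers. From these, outlier spots were left out, spots averaged as log2, and each array's 75th percentile subtracted. A gene is its brightest probe among those well above background, by the majority of their spots, on at least 1 array. Genes were named by RefSeq accession (22951 probes) or symbol (9768), and 8455 probes kept the deposited name. A group dim on all arrays gives a bound against the array floors.

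Pathway genes were tested with limma 3.58.1 in R 4.3.3, with 8 residual degrees of freedom in 4 classes and 6 in 6 classes, and Benjamini-Hochberg adjustment over all genes. Since nothing shows separate cultures, p-values measure the spread between these samples only. The receptors, the 70 pathway genes and 8 marker lists were chosen with earlier results of these arrays known. In each list and comparison, up to 4 genes that passed (or lay 2-fold apart, without a test) were named, ranked by size of change. Other list genes were named after their values were seen. For each receptor the 3 genes with the highest Pearson r over the 12 arrays were named, except 1 that is not reported here. The fit was tested on simulated data. Alternatives are given in the closing section.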

Additional observations from a re-analysis of the deposited data

Results flagged for a closer look

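In 19 receptor probes tested for a sample far from the rest of the 9 iPS lines, chance alone flags about 5% of such groups. The 1 flagged value was an Egfr probe on variant 1 (chr11:16864187-16864246, mm7), at -2.95 in tail-tip line 2, with the next highest line at -3.96. The gap was 0.503 of the range of the 9 lines, over Dixon's critical value. The same array was the highest line at the far 3′ Egfr probe, at 2.50, and had the highest fibroblast sum of the lines, at 44.3. The part of fibroblast RNA in this value was not tested.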

How the results depend on the processing

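For the receptors, 544 alternatives kept the direction and stayed within the spread of the lines in 509 cases, moved further in 32 and turned in 3. The mean of all probes gave 0.12 for Erbb2 in ES over MEF (-1.73 by the brightest probe) and 0.02 for Erbb3 in spheres over ES (-1.49), and Met in tail-tip over embryonic oxysterol lines became 1.60 without embryonic oxysterol line 1 and -4.08 without line 2 (-1.24 with both). With normexp background, Kit was 2.35 above MEF in the lines and 0.77 in spheres. Of the 69 pathway genes called for lines over MEF (6), 4 (4 higher, 0 lower) were called with slide as a fixed block, 6 with slide as a random block, and 0 with only the arrays on the slide of MEF and ES, which leaves 2 lines. Leaving out each line in turn gave 6 to 8, and 0 to 0 against ES and for Bmi1-Oct4 over hedgehog-agonist lines. Omitting tail-tip line 2 and purmorphamine line 2, chosen after seeing the data, gave 6. Raising signals to the floor called 2 genes for Bmi1-Oct4 over hedgehog-agonist lines, 0 higher and 2 lower. A fixed slide block could not be fitted there. A 3-fold threshold left 29 of 45 genes for ES over MEF. Clone numbers as a replicate block called 7 (5 higher, 2 lower) for lines over MEF and 0 in the other 2 tests, but the numbers share no culture in the labels and did not pair the samples (correlations of deviations -0.16 to 0.24). Split of higher to lower moved with normexp (5 and 4) for lines over MEF, with the mean of probes (19 and 18) for spheres over MEF (14 and 21), and with quantile scaling (11 and 32) for ES over MEF (16 and 29). The median over all genes was 0.44 for lines over MEF, and 0.12 with quantile scaling. Among named pathway genes, the mean of all probes turned Rnf41 in spheres over MEF (-0.78) and, in ES over MEF, Kitl (-2.33), Crkl (0.68), Shc4 (0.17), Rnf41 (-2.71) and Plxnb1 (-1.30), and the floor turned Hgf (0.15). The cause was not tested.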

Other observations

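Several related receptors outside the EGF, PDGF, Kit and Met group also differed between spheres, ES and MEF. Axl, a receptor of mesenchymal cells, read -0.79 to 3.64 in the iPS lines, 3.15 in spheres, -0.26 in ES and 4.54 in MEF. Cd44 read -4.25 to 3.96 in the lines, 5.16 in spheres, -0.44 in ES and 5.11 in MEF, with saturated spots in spheres and MEF. Neither passed the limma test between lines and MEF (adjusted p = 0.238 for Axl and 0.276 for Cd44). Sh3kbp1, an adaptor in receptor uptake, read 0.16 to 4.27 in the lines, 4.75 in spheres, 0.01 in ES and 5.28 in MEF, where its spot was saturated (limma adjusted p = 0.195). Values at saturated spots are lower bounds on the signal, so the differences and p-values that use them are approximate.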
